A study of Mus musculus with 4 samples.

Results

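Genes for the subunits of the serine/threonine phosphatases PP1 to PP6 were followed in mouse bone marrow derived macrophages that lack one such subunit, PP2ACα, the alpha catalytic subunit of PP2A encoded by Ppp2ca. Members were the genes whose single symbol in the platform's probe annotation begins with Ppp and a digit from 1 to 6. The genes of PP2A-type catalytic subunits, Ppp2ca, Ppp2cb, Ppp4c and Ppp6c, were left out. This gave 74 genes of the 22180 that had a feature with exactly 1 symbol. Of these, 52 reached the level at which genes were tested, a mean of 3.53 log2 units over the 4 arrays, which is the median of all features.

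Whole-transcript arrays were hybridised with RNA of 2 knockout and 2 control cultures. Knockout macrophages carried floxed alleles of PP2ACα (PP2ACαfl/fl) together with the myeloid Cre that the labels write lyM-Cre, which removes exon 1. Control macrophages carried the same floxed alleles with no Cre named in the labels. Both genotypes were grown from bone marrow for 6 days in RPMI medium with L-cell supernatant and received 100 ng/ml of lipopolysaccharide (LPS), the bacterial cell wall component sensed by Toll-like receptor 4, for 2 hours. The labels call the 2 arrays of a genotype biological replicates and do not say whether they came from different mice, so the p-values measure the spread between these cultures. No culture without LPS was measured, and the age and strain of the mice are not given in the sources used here.

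These phosphatases remove phosphate from serine and threonine residues, and each is built around a small set of catalytic subunits. PP1 finds its substrates through a large number of unrelated regulatory proteins, many of which hold it by a short docking motif. PP2A pairs its catalytic subunit with a scaffold and with 1 of several exchangeable regulatory subunits, which compete for the same core. Calcineurin (PP3) is the calcium-dependent enzyme that activates NFAT factors, PP4 and PP6 are relatives of PP2A with their own regulatory subunits, and PP5 carries its regulatory repeats in the same chain. In macrophages, phosphatases of this family dampen kinase signalling after LPS, act on the translation factor eIF2 alpha and control actomyosin contraction.

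A pair of promoters is shown. Ppp1r14b was the single member that passed the test. Ppp1r15a did not pass and is shown only because it is known as a stress and LPS inducible gene. Each promoter runs 5′ to 3′ on the strand of its gene, from 250 bases before to 50 after the annotated start (RefSeq, build GRCm38.p6). Ppp1r14b lies on chromosome 19, at chr19:6974798-6975097, plus strand. Ppp1r15a lies on chromosome 7, at chr7:45526219-45526518, minus strand. Capitals in the Ppp1r14b promoter mark GGGCGG, the GC box, and in the Ppp1r15a promoter TGACGTCA, the cAMP response element, and GAAANNGAAA, the core of the interferon response element.
Ppp1r14b: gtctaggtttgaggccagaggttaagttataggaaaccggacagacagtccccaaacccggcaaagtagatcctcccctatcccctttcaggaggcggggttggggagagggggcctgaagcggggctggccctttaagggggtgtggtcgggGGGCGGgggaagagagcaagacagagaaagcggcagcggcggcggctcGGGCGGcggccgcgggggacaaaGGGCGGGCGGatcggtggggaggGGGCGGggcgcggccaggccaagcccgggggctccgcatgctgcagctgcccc
Ppp1r15a: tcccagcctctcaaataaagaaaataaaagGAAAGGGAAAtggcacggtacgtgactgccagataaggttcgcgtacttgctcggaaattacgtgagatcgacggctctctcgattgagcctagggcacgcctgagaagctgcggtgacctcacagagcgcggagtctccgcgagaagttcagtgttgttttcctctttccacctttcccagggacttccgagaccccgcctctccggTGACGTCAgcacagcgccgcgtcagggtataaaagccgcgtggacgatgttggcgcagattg

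The Ppp1r14b promoter held 5 GC boxes, of which an adjoining pair overlapped, searched on both strands. Promoters were given for 40 of the 52 tested members, and 33 of these (82.5%) held a GC box, against 65.4% of the 9847 tested genes with a promoter and 35.7% of all 32851 promoter entries. An E box, CACGTG, stood in 2 of the 40, against 11.6% of tested genes with a promoter and 7.15% of all entries, and the Ppp1r14b promoter held none. The cAMP response element was found in 3 of the 40 (Ppp1r12c, Ppp1r15a and Ppp2r2d), against 3.36% of tested genes with a promoter and 1.79% of all entries. The interferon core likewise stood in 3 of the 40 (Ppp1r15a, Ppp1r7 and Ppp3cb), against 3.78% of tested genes with a promoter and 3.44% of all entries. None of the genes with either element passed the test. These matches describe the letters in this window and are no evidence of binding.

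The deleted gene was checked first. Ppp2ca has 3 features with exactly 1 symbol, and only that with the highest mean is given. It read 4.36 and 3.39 log2 units on the knockout arrays, against 8.25 and 7.59 on the control arrays. The labels and these values go the same way. Whether these probes lie in the removed exon was not analysed here. Array medians lay between 3.50 and 3.57 log2 units, and any 2 arrays correlated at 0.986 to 0.990 across features. All 6 macrophage markers were well above the filter level on every array, at 8.17 to 11.97 log2 units, among them Csf1r and Cd68; Fcgr1 was the 1 that passed the test, and it rose by 0.94. Of 3 monocyte markers, Ly6c2 (0.76) and Ccr2 (0.83) rose, and F13a1 (-0.79) fell; the log2 of their summed level was 10.08 to 10.13 in knockout and 10.14 to 10.28 in control. Among 26 measured markers of neutrophils, dendritic, T, NK, B, stromal, mast, erythroid and megakaryocytic cells none passed limma, with 2 at an unadjusted p under 0.05, and 16 lay below the filter level. In such bulk RNA, fewer cells of a type and less RNA per cell cannot be told apart.

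Few phosphatase subunit genes differed measurably between the genotypes. Of 52 tested members, 1 passed the test (1.92%): Ppp1r14b, the gene of a small PP1 inhibitor, fell. Across all 12542 tested genes, 6.79% passed and 3.49% fell. At an unadjusted p under 0.05 there were 7 members (13.5%), against 24.7% of all tested genes. Group means were 1.5-fold or more apart for Ppp1r14b alone, against 5.24% of all tested genes. The knockout arrays lay on one side of both control arrays for 28 members (53.8%), 18 above and 10 below, and for 55.3% of all tested genes. The median difference, knockout minus control, was 0.02 log2 units over the members and 0.01 over all tested genes; centring each array on its median made these -0.02 and -0.03, and without control replicate 1 the members' median was -0.0030. The median size of a difference, regardless of sign, was 0.12 log2 units for members and 0.15 for all tested genes.

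A missed threshold does not show that a gene is unchanged, so the interval of each difference is given with it. The 95% interval, from limma's pooled variance and without adjustment for the number of genes, lay wholly within 1.5-fold in either direction for 47 members (90.4%), against 74.7% of all tested genes. Intervals of the other 5, Ppp1r14b, Ppp1r9a, Ppp5c, Ppp1r15b and Ppp1r16b, reached beyond 1.5-fold. The median half-width was 0.24 log2 units for members and 0.26 for all tested genes, and the median residual SD was 0.07 and 0.10.

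**Figure D1:**
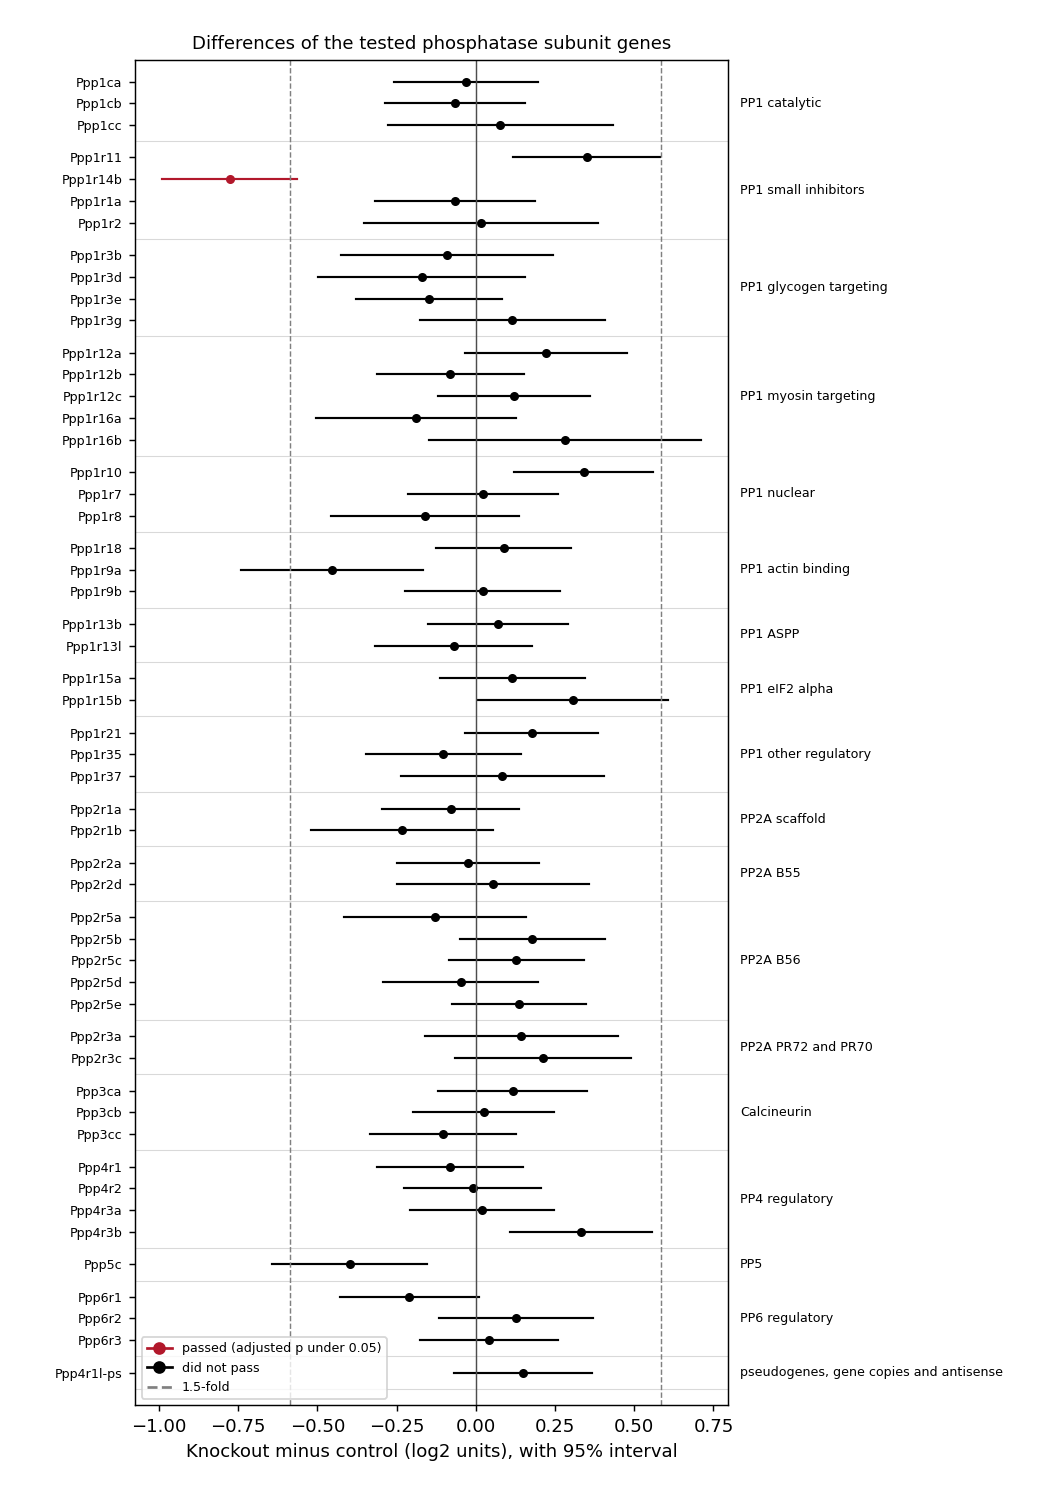
Knockout minus control difference in log2 units for each of the 52 tested members, grouped by role. Points are differences, lines are 95% intervals and dashed lines mark 1.5-fold; the interval of Ppp1r14b, drawn in red, runs from -0.99 to -0.56, and the others are centred between -0.45 and 0.35.

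**Figure D2:**
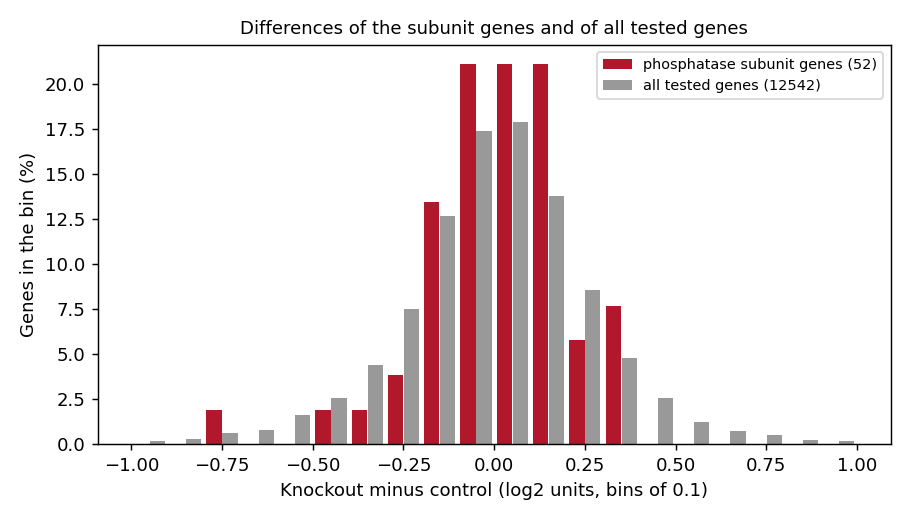
Share of genes, in percent, per bin of 0.1 log2 units of the knockout minus control difference, for the 52 tested members (red) and all 12542 tested genes (grey). Bins beyond 1 log2 unit, which hold no member, are left out; apart from Ppp1r14b at -0.78, members lie between -0.45 and 0.35.

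Ppp1r14b encodes a PP1 inhibitor of the CPI-17 family, which blocks myosin phosphatase once it is itself phosphorylated. It read 8.30 and 8.32 log2 units on the knockout arrays, against 9.11 and 9.06 on the control arrays. Both knockout arrays were low, the groups did not overlap, and arrays of 1 genotype were 0.02 apart in knockout and 0.05 apart in control. The means were 8.31 ± 0.02 in knockout and 9.08 ± 0.03 in control macrophages (SD, n = 2 each). Expression was thus 1.71-fold lower in knockout, -0.78 on the log2 scale with an SE of 0.09 (adjusted p = 0.012 in limma). The size hardly depended on any 1 array, whereas the call did. It was -0.77 (adjusted p = 0.089) without knockout replicate 1, -0.79 (0.088) without knockout replicate 2, -0.75 (0.063) without control replicate 1 and -0.80 (0.055) without control replicate 2, so it missed the threshold each time. With a variance fitted per gene, without pooling, the adjusted p was 0.14, and over all 13 alternatives it ranged from 0.000554 to 0.14. The monocyte markers above moved beside it in both directions, and their part in this difference was not tested.

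The other genes of the CPI-17 family gave no measurement to set beside it. Ppp1r14a, Ppp1r14c and Ppp1r14d all lay under the filter level and were not tested. The gene copy Ppp1r14bl, which probes of Ppp1r14b could in principle read, stood at 2.85 and 2.82 log2 units in knockout and 2.85 and 2.61 in control macrophages, also under that level. In RefSeq gene order, Plcb3 precedes Ppp1r14b and differed by -0.00035 (adjusted p = 0.998). Fkbp2, the nearest following gene with a single-symbol feature, read 8.08 and 7.92 in knockout, against 8.76 and 8.38 in control macrophages. Its difference of -0.57 did not pass (adjusted p = 0.089).

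**Figure D3:**
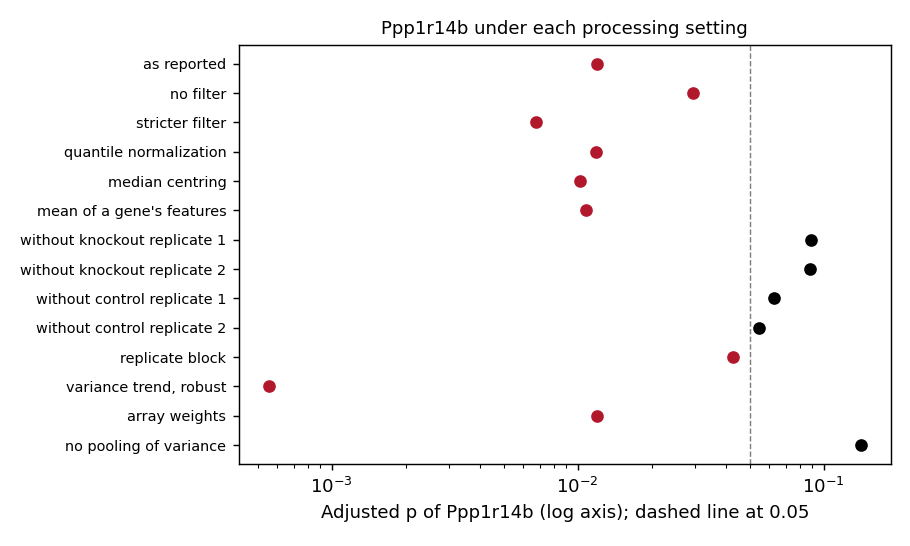
Adjusted p of Ppp1r14b on a log axis, as reported (0.012) and under 13 other settings; red points lie under 0.05 (dashed line) and black points above it. The black points are the 4 settings that leave out an array, at 0.055 to 0.089, and the fit without pooled variance, at 0.14.

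Among the other small inhibitors of PP1, Ppp1r11 stood highest above control. This gene, whose product inhibits PP1 and is also known as a ubiquitin ligase for a Toll-like receptor, read 8.01 and 8.08 log2 units in knockout and 7.75 and 7.64 in control macrophages. All knockout values were above all control values, and the difference of 0.35 (interval 0.12 to 0.58) did not pass (adjusted p = 0.089). Ppp1r2, a classical PP1 inhibitor, differed by 0.02 (-0.35 to 0.38), and Ppp1r1a, an inhibitor switched on by protein kinase A, by -0.07 (-0.32 to 0.19). The remaining 6 of the 10 genes in this group lay under the filter level.

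Of the 3 genes for PP1 catalytic subunits none passed limma, nor at an unadjusted p under 0.05. Ppp1ca read 10.37 and 10.27 log2 units in knockout and 10.37 and 10.33 in control macrophages, a difference of -0.03 (-0.26 to 0.20). Ppp1cb read 9.55 and 9.57 in knockout and 9.58 and 9.67 in control macrophages, a difference of -0.06 (-0.29 to 0.16). With the mean of both its features, the dimmer of which lies under the filter level, it was -0.24 (adjusted p = 0.30). Ppp1cc, with 6.63 and 6.41 in knockout and 6.60 and 6.29 in control macrophages, differed by 0.08 (-0.28 to 0.43), and its groups overlapped.

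None of 3 subunits of nuclear PP1 passed limma, and Ppp1r10 alone had an unadjusted p under 0.05. Ppp1r10, which encodes PNUTS, a partner of PP1 on chromatin and in transcription termination, read 9.04 and 9.11 log2 units in knockout and 8.72 and 8.76 in control macrophages. Its groups did not overlap, and the difference of 0.34 (0.12 to 0.56) missed the threshold (adjusted p = 0.083). Ppp1r7, the gene of SDS22, which helps to assemble PP1, differed by 0.02 (-0.21 to 0.26), and Ppp1r8, the gene of the splicing-linked inhibitor NIPP1, by -0.16 (-0.46 to 0.14). Ppp1r10, Ppp1r18 and Ppp1r11 share a chromosome in RefSeq gene order, with 4 coding genes between the first pair and 35 between Ppp1r18 and Ppp1r11. Ppp1r18 differed by 0.09, and the genes next to Ppp1r10, Mrps18b and Abcf1, by -0.29 and -0.10, none of them past the threshold. Next to Ppp1r11, Znrd1 differed by -0.03, and the following gene, Znrd1as, rose by 0.61 (adjusted p = 0.028).

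An actin-linked PP1 subunit had the lowest difference of the tested members after Ppp1r14b. Ppp1r9a, the gene of neurabin, which ties PP1 to actin filaments, read 3.93 and 3.72 log2 units in knockout and 4.21 and 4.36 in control macrophages. Both knockout arrays were lower, and the difference of -0.45 (-0.74 to -0.17) did not pass (adjusted p = 0.080). All its values are close to the filter level of 3.53. Its relative spinophilin (Ppp1r9b) differed by 0.02 (-0.22 to 0.27), and phostensin (Ppp1r18) by 0.09 (-0.13 to 0.30).

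Among the 5 genes of the myosin phosphatase targeting family none passed limma, or at an unadjusted p under 0.05. Ppp1r12a, which encodes the main targeting subunit MYPT1, read 8.85 and 8.86 log2 units in knockout and 8.73 and 8.53 in control macrophages, a difference of 0.22 (-0.03 to 0.48). Ppp1r16b, whose product resembles MYPT1, read 3.72 and 3.98 in knockout and 3.36 and 3.78 in control macrophages. It differed by 0.28 with a wide interval (-0.15 to 0.71), and its groups overlapped. It was 0.071 without control replicate 1 and 0.49 without control replicate 2. Ppp1r12b, Ppp1r12c and Ppp1r16a differed by -0.08, 0.12 and -0.19.

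Both genes of the eIF2 alpha phosphatase were slightly above control without passing. Ppp1r15b, the constitutive subunit that takes PP1 to eIF2 alpha, read 8.98 and 9.26 log2 units in knockout and 8.82 and 8.81 in control macrophages. The difference of 0.31 (0.01 to 0.61; adjusted p = 0.19) was 0.45 without knockout replicate 1 and 0.17 without knockout replicate 2. Ppp1r15a, the inducible subunit GADD34 whose promoter is shown above, read 9.39 and 9.30 in knockout and 9.28 and 9.19 in control macrophages, a difference of 0.11 (-0.11 to 0.34). A list of 7 eIF2 alpha kinases and downstream stress factors had 2 genes higher, both past the threshold, and 5 lower, none past it. Thus 28.6% of this short list passed, against 6.79% of all tested genes. Eif2ak2, the interferon-inducible kinase PKR that phosphorylates eIF2 alpha, rose by 0.73. Ddit3, the stress factor CHOP that is known to induce Ppp1r15a, rose by 0.49. Among the 5 others, the kinase gene Eif2ak4 differed by -0.33 (adjusted p = 0.080), the transcription factor gene Atf4 by -0.32 (adjusted p = 0.11), and the kinase genes Eif2ak3 and Eif2ak1 by -0.17 and -0.06. In these 4 genes both knockout arrays lay below both control arrays. Across all tested genes, 55.3% had groups that did not overlap, in either direction. Trib3, at -0.06, had overlapping groups.

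Glycogen-targeting subunits, which bring PP1 to glycogen particles, are best known from muscle and liver. Here 4 of the 7 were tested and none passed limma, or at an unadjusted p under 0.05. Ppp1r3b differed by -0.09 (-0.42 to 0.24), Ppp1r3d by -0.17 (-0.50 to 0.16), Ppp1r3e by -0.15 and Ppp1r3g by 0.12. In the ASPP pair, which links PP1 to p53, Ppp1r13b differed by 0.07 (-0.15 to 0.29) and Ppp1r13l by -0.07. Of the remaining PP1 subunits, Ppp1r21, a protein of early endosomes, read 9.05 and 9.04 log2 units in knockout and 8.87 and 8.87 in control macrophages. This difference of 0.18 (-0.03 to 0.39) did not pass (adjusted p = 0.26), and Ppp1r35 and Ppp1r37 differed by -0.10 and 0.08.

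**Figure D4:**
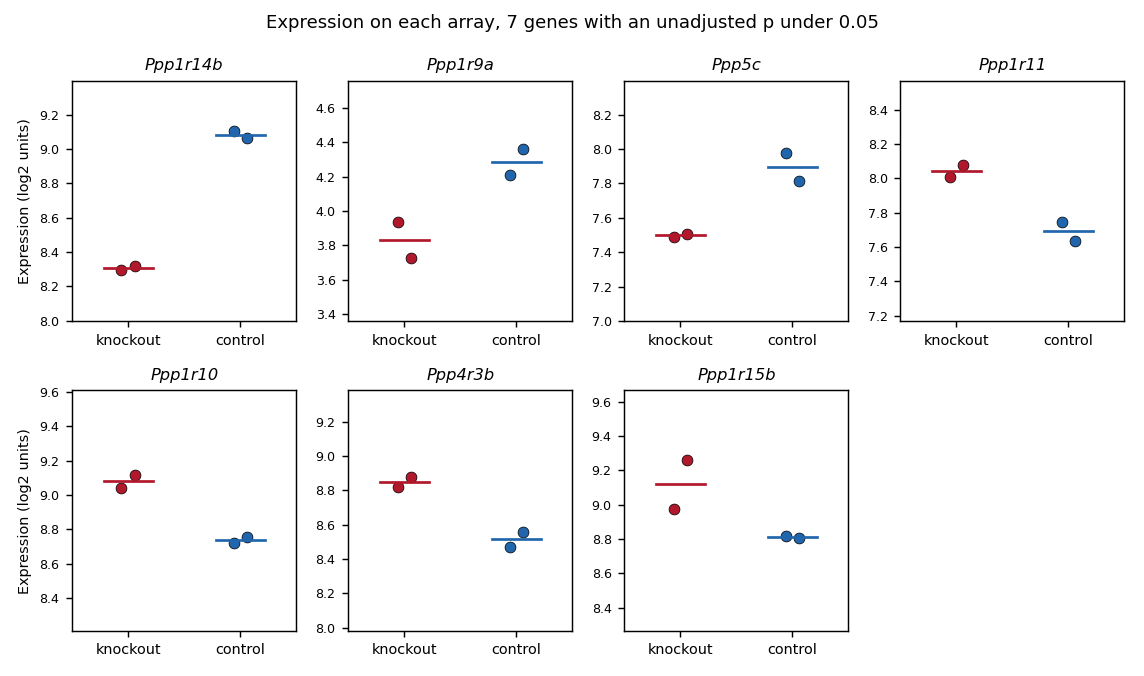
Expression in log2 units on each array for the 7 members with an unadjusted p under 0.05, knockout in red and control in blue; points are arrays, bars are group means, and every panel spans the same range. In each panel the genotypes do not overlap, as in 55.3% of all tested genes. The genes were picked by their p from these same arrays, so this separation is no further evidence. Ppp1r14b, at 8.30 and 8.32 in knockout and 9.11 and 9.06 in control, has the widest gap.

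Subunits that form holoenzymes with the deleted protein came next. Of 11 tested PP2A members, none passed limma, against 6.79% of all tested genes. None had an unadjusted p under 0.05, against 24.7% of all tested genes. Differences ran from -0.23 to 0.21. The 11 intervals all lay within 1.5-fold in either direction. Only messages were measured, so the amounts of these proteins were not analysed here.

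The scaffold, on which every PP2A trimer is assembled, is encoded by Ppp2r1a and Ppp2r1b. Ppp2r1a read 10.65 and 10.71 log2 units in knockout and 10.75 and 10.77 in control macrophages, a difference of -0.08 (-0.30 to 0.14). Ppp2r1b read 7.21 and 7.16 in knockout and 7.29 and 7.54 in control macrophages, a difference of -0.23 (-0.52 to 0.05; adjusted p = 0.28). It was -0.36 without control replicate 1 and -0.11 without control replicate 2. Both knockout arrays were below both control arrays for each gene, and the closest arrays were 0.03 log2 units apart for Ppp2r1a and 0.08 for Ppp2r1b. Such separation, in either direction, was found for 55.3% of all tested genes.

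Regulatory subunits of the B56 class, which read a short motif in their substrates, were measured for all 5 genes. Ppp2r5a differed by -0.13 (-0.42 to 0.16) and Ppp2r5d by -0.05 (-0.29 to 0.20), with overlapping groups. In Ppp2r5b, Ppp2r5c and Ppp2r5e both knockout arrays stood above both controls. Groups that did not overlap, in either direction, were found for 55.3% of all tested genes. Ppp2r5b read 6.75 and 6.75 log2 units in knockout and 6.63 and 6.51 in control macrophages, a difference of 0.18 (-0.05 to 0.41; adjusted p = 0.29). Ppp2r5c differed by 0.13 (-0.08 to 0.34) and Ppp2r5e by 0.14 (-0.07 to 0.35). A second feature of Ppp2r5b at a lower signal had the opposite sign, at 4.40 in knockout and 4.54 in control macrophages.

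Of the B55 class, which acts at mitotic exit, Ppp2r2a differed by -0.03 (-0.25 to 0.20) and Ppp2r2d by 0.05 (-0.25 to 0.36), and both had overlapping groups. Ppp2r2b and Ppp2r2c, known from neurons, lay under the filter level. In the calcium-binding PR72 class, Ppp2r3c read 7.54 and 7.31 log2 units in knockout and 7.18 and 7.24 in control macrophages. It differed by 0.21 (-0.06 to 0.49; adjusted p = 0.30), and Ppp2r3a differed by 0.14 (-0.16 to 0.45).

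**Figure D5:**
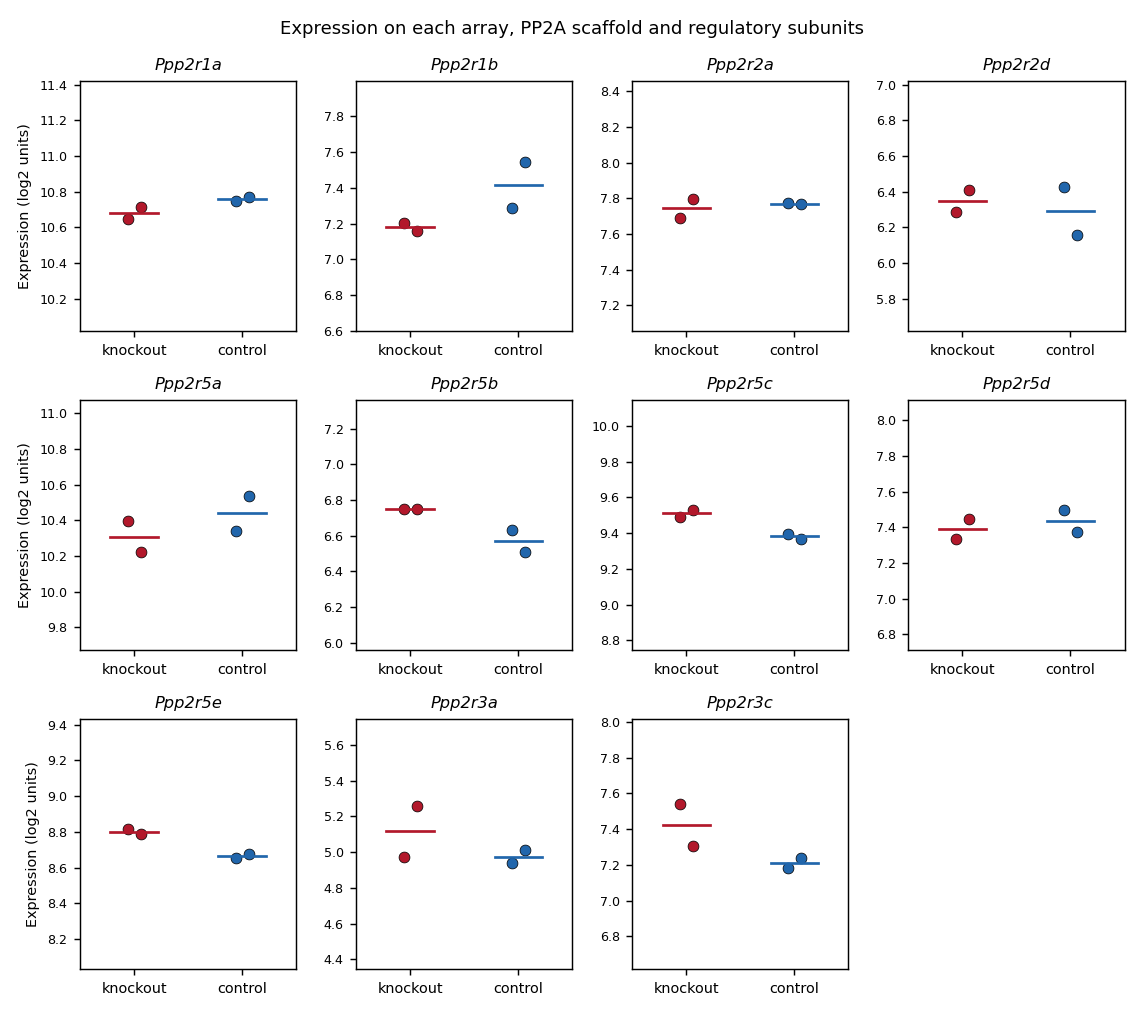
Expression in log2 units on each array for the 11 tested PP2A scaffold and regulatory subunit genes, knockout in red and control in blue; points are arrays, bars are group means, and every panel spans the same range. Group means differ by at most 0.23, in Ppp2r1b, where the knockout arrays are lower.

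PP5 showed the largest difference among catalytic subunits in the set. Ppp5c, whose product works with the chaperone HSP90, read 7.49 and 7.50 log2 units in knockout and 7.98 and 7.81 in control macrophages. Both knockout arrays were lower, and the difference of -0.40 (-0.64 to -0.16) did not pass (adjusted p = 0.075). None of the 3 genes for calcineurin catalytic subunits passed limma, or had an unadjusted p under 0.05: Ppp3ca differed by 0.12 (-0.12 to 0.35), Ppp3cb by 0.02 (-0.20 to 0.25) and Ppp3cc by -0.10 (-0.33 to 0.13). Both knockout arrays lay above both control arrays for Ppp3ca and below them for Ppp3cc, while 55.3% of all tested genes had groups that did not overlap. The testis subunit gene Ppp3r2 lay under the filter level. Ppp3r1, the regulatory subunit of most cells, has only a feature shared with another gene and was given no value, as was Ppp1r1b. Of 5 tested calcineurin partners and targets none passed limma. Of these, 2 had an unadjusted p under 0.05, against 24.7% of all tested genes.

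Among 4 tested PP4 regulatory genes, Ppp4r3b read 8.82 and 8.88 log2 units in knockout and 8.47 and 8.56 in control macrophages. The groups did not overlap, and the difference of 0.33 (0.11 to 0.56) missed the threshold (adjusted p = 0.092). Its close relative Ppp4r3a differed by 0.02 (-0.21 to 0.25), Ppp4r2 by -0.01 (-0.23 to 0.21) and Ppp4r1 by -0.08 (-0.31 to 0.15). The pseudogene Ppp4r1l-ps differed by 0.15 (-0.07 to 0.37). The PP6 subunits parted in direction: Ppp6r1 averaged 8.74 ± 0.0039 in knockout and 8.95 ± 0.06 in control macrophages (SD, n = 2 each), a difference of -0.21 (-0.43 to 0.01; adjusted p = 0.22). Ppp6r2 differed by 0.13 (-0.12 to 0.37) and Ppp6r3 by 0.04 (-0.18 to 0.26).

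Under a variance model with a trend and robust estimation, 5 of 52 tested members passed in place of 1. Ppp1r14b and Ppp5c were lower, and Ppp1r10, Ppp1r11 and Ppp4r3b higher, in knockout. Over all 12542 tested genes that model called 1590 in place of 852, so the count rose there as well.

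Partners of these enzymes outside the name pattern were set beside the members. Of 12 tested PP1 partners, 1 rose and 2 fell, so that 25.0% passed, against 6.79% of all tested genes. Phactr1, an actin-binding PP1 partner, rose by 0.63, with 4.10 and 4.34 log2 units in knockout and 3.70 and 3.48 in control macrophages (adjusted p = 0.049). Rrp1b and Nom1, which take PP1 to the nucleolus, fell by 0.60 and 0.44 (adjusted p = 0.036 and 0.042). Of 18 tested PPM phosphatases, a family unrelated in sequence, 1 passed (5.56%). Phlpp1, which acts on the kinase AKT, rose by 0.67, with 8.41 and 8.47 in knockout and 7.79 and 7.75 in control macrophages (adjusted p = 0.017). Of 12 PP2A inhibitors, methylation and assembly genes only Set passed (8.33%), at -0.50 (adjusted p = 0.047 in limma). None of 7 tested STRIPAK genes, which encode PP2A-bound scaffolds and kinase partners, passed limma, nor at an unadjusted p under 0.05. No PP4 or PP6 partner of 3 passed limma. All 3 had an unadjusted p under 0.05, against 24.7% of all tested genes, among them Ankrd44 at 0.60. The lists outside the members include the eIF2 alpha kinases and stress factors, and Ppp2ca, the deleted gene, whose fall is the check of the genotype. With Ppp2ca counted, 8 of their 68 tested genes passed (11.8%), against 6.79% of all tested genes. The count was smaller when an array was left out: 1 without knockout replicate 1, 1 without knockout replicate 2, 0 without control replicate 1 and 1 without control replicate 2.

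The 22 members that were not tested had values from 1.56 to 3.86 log2 units, and their largest difference was 0.31, in Ppp1r32. Just outside the filter level of 3.53 lay Ppp4r4 at a mean of 3.50 and Ppp1r32 at 3.43, and just inside lay Ppp1r3g at 3.65 and Ppp1r16b at 3.71. There were 5 members with more than 1 single-symbol feature. Features shared with another gene, such as those of Ppp1cc and Ppp2r3c, were not used. In Ppp1r18 and Ppp2r5b the brighter and the dimmer feature differed in sign (0.09 and -0.23, 0.18 and -0.14), in Ppp1r3b they gave -0.09 and -0.08, the dimmer feature of Ppp1cb lay under the filter level, and so did both of Ppp1r14c.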

How the data were processed

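Affymetrix whole-transcript arrays were prepared with 400 ng of RNA as input, per the labels' protocols. The authors deposited log2 values made by robust multi-array averaging (RMA), per the series' design text; the submitters' processing notes name oligo and RMA, with versions and genome build not given in the sources used here. Between-array normalization removes a change of total RNA per cell.

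Genes were named from the platform annotation; 23521 of 41345 features had 1 symbol, 1814 several and 16010 no annotation row. A gene was represented by its feature with the highest mean, and tested if that mean reached 3.53. Knockout was compared with control by limma 3.58.1 in R 4.3.3 (lmFit, eBayes, 2 residual degrees of freedom, prior 3.51), two-sided, with Benjamini-Hochberg adjustment over 12542 genes and a threshold of 0.05. Means, SD and 95% intervals came from the same fit or values, and the number of arrays limits their precision. All members matched RefSeq by gene ID. The code was tested on simulated data.

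The members, role groups, lists and alternatives were chosen with earlier results of these data known, and pseudogenes and copies were grouped after the files were read. Named were called members, the member with the highest mean and that with the largest difference per role group, the catalytic and scaffold subunits, Ppp1r15a and Ppp1r15b, up to 4 called genes per other list, and Ppp2ca. Other members were named after their values were seen, as were the motifs. Alternatives covered filters, normalization, features, replicates, block and variance model. A planned count of the PP1 docking motif in proteins was not run, since no protein sequences were used here.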

Additional observations from a re-analysis of the deposited data

How the results depend on the processing

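Ppp1r14b was the called member under median centring, quantile normalization, array weights, the replicate block, the feature mean and both other filters, and its difference lay between -0.82 and -0.75 under all 13 alternatives. Members called numbered 0 without each array in turn, 0 without pooling the variance and 5 with the variance trend. Over all tested genes the count was 333 with no filter, 96 to 174 without 1 array, 1590 with the variance trend and 0 without pooling (2295 at an unadjusted p under 0.05), against 852. Genes called on the other lists numbered 8 as reported, 3 with no filter, 0 to 1 without 1 array, 13 with the variance trend and 0 without pooling. The labels share replicate numbers, but the deviations of same-numbered arrays correlated at -0.036, so the numbers were not taken as pairs; with the replicate block 312 genes, 2 on the other lists and 1 member were called. The members' median was -0.019 with median centring and -0.0030 to 0.037 without 1 array. At 2-fold, 0 members were apart. Of 401 values of 31 named members under the alternatives, 17 changed sign, all uncalled and at most 0.09 in size as reported. Median centring gave -0.018 for Ppp1r7, -0.00040 for Ppp6r3 and -0.017 for Ppp3cb, and the mean of features gave -0.069 for Ppp1r18, -0.24 for Ppp1cb and 0.018 for Ppp2r5b. Without 1 array, the range was -0.085 to 0.022 for Ppp1ca, -0.079 to 0.23 for Ppp1cc, -0.22 to 0.043 for Ppp1r3b, -0.043 to 0.090 for Ppp1r7, -0.080 to 0.029 for Ppp2r2a, -0.079 to 0.19 for Ppp2r2d, -0.046 to 0.026 for Ppp4r2 and -0.021 to 0.071 for Ppp3cb. Without a change of sign, it was -0.31 to -0.031 for Ppp1r3d, 0.071 to 0.49 for Ppp1r16b, -0.36 to -0.11 for Ppp2r1b, -0.23 to -0.032 for Ppp2r5a and 0.095 to 0.33 for Ppp2r3c. Fewer arrays enter the fit when 1 is left out, and more genes enter it with no filter. The causes of these changes were not tested. Signal near background limits the dimmest members, such as Ppp1r9a and Ppp1r16b. The planned docking motif count and its alternative were not run.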
